A study of Mus musculus with 12 samples.

Results

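The genes that mark GABAergic interneurons were followed through the hippocampus of adult mice that had been exposed to ethanol early in life, to isolation stress after birth, or to both. The members were chosen by name and by no rule on measured values, though with earlier results of these data known. They are the 9 genes Gad1, Gad2, Slc32a1, Sst, Npy, Vip, Cck, Pvalb and Reln, out of 35501 genes in the expression table. They are annotated with 38 of its 115270 transcripts, of which 37 were above 0 in some library and 22 passed the filter on low values, a value of at least 0.1 TPM in at least 6 of 12 libraries. Of the 38 transcripts, 19 are protein coding, 11 retain an intron, 5 are processed transcripts and 3 are annotated as targets of nonsense-mediated decay.

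Interneurons are the inhibitory cells of the hippocampal circuit. They make GABA from glutamate with the enzymes GAD67 (Gad1) and GAD65 (Gad2), load it into synaptic vesicles with the transporter VGAT (Slc32a1), and are divided into classes by what else they make: somatostatin (Sst), neuropeptide Y (Npy), vasoactive intestinal peptide (Vip), cholecystokinin (Cck) or the calcium buffer parvalbumin (Pvalb). Reelin (Reln) is a large secreted glycoprotein that guides neuronal layering during development and is made in the adult hippocampus by interneurons and by surviving Cajal-Retzius cells. Cck is also transcribed in pyramidal cells and Gad1 at a low level in granule cells, so that neither belongs to interneurons alone.

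RNA came from the hippocampus of 12 C57BL/6 mice (C57BL/6J and male according to the methods) at postnatal day 70. Control mice were born to dams that drank water and were reared undisturbed, whereas the dams of ethanol mice could choose to drink 10% ethanol. The labels give gestation as the period of ethanol access, whereas by the methods it went on into the days after birth, when the pups of stressed arms were being isolated. Stress mice were born to water-drinking dams and were isolated from the dam and from littermates on postnatal days 2 to 14, 3 h each day, and ethanol + stress mice had both exposures. Each group holds 3 mice. The methods state that pups of one litter were divided between the stressed and undisturbed arms, and the labels do not give litters, so mice of different groups may be littermates and ethanol intake is that of the dam.

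The values below are those of whole transcripts, while the coding sequences of the 4 peptides that define interneuron classes are printed for reference. They were read from the mm10 (GRCm38) transcripts in 5′ to 3′ direction of the gene, and capitals mark the codons for Phe-Trp-Lys-Thr of somatostatin, its receptor-binding core, and those for the last 4 residues of cholecystokinin (Trp-Met-Asp-Phe), which gastrin shares.
somatostatin-14, Sst, chr16:23889732-23889773, minus strand, exon 2: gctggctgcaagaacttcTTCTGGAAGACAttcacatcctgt
neuropeptide Y, Npy, chr6:49823682-49827492, plus strand, exons 2 and 3: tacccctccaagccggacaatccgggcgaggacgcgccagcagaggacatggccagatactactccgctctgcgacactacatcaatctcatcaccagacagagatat
vasoactive intestinal peptide, Vip, chr10:5644024-5644107, plus strand, exon 5: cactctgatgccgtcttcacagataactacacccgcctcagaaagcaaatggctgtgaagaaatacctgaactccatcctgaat
cholecystokinin-8, Cck, chr9:121490107-121490130, minus strand, exon 3: gactacatgggcTGGATGGATTTT
The stretches for somatostatin-14, vasoactive intestinal peptide and cholecystokinin-8 each lie in a single exon, whereas the 108 bases for neuropeptide Y are joined across an intron. Sst and Npy have 1 transcript each, so that every read assigned to them belongs to a transcript that codes for the peptide. For Cck the peptide is held in the coding part of Cck-201 and Cck-203, while 2 further transcripts of its 6 carry the same bases outside a coding frame.

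The libraries were near each other in depth but not in all properties. By the step that 1 read pair is worth among low values, they hold 12020000 to 14920000 read pairs. In each library the deviation of transcripts from their 12-library mean was set against transcript length, and the slope of that line ran from -0.0995 to 0.0643 log2 units per doubling of length. A group of 3 libraries lay apart at the low end, ethanol 2 at -0.0995, ethanol + stress 2 at -0.0720 and ethanol + stress 3 at -0.0552, against -0.0147 to 0.0643 in the other 9. In these 3 libraries, genes under 1000 bases had a median deviation of 0.31, 0.29 and 0.24 on the log2 scale and genes over 4000 bases one of -0.14, -0.14 and -0.09. They hold 2 of the 3 ethanol + stress mice, 1 ethanol mouse and no control or stress mouse, so the differences of the members and the counts of the main lists are also given without them. Then 1 ethanol + stress mouse remains, which is assumed to vary like the other groups.

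All 9 members were detected in all 12 libraries, on a scale corrected for transcript length. In control mice Cck had the highest level at 768 ± 90.9 TPM (SD, n = 3), followed by Sst at 370.1 ± 31.5, Gad1 at 190.1 ± 20.3, Npy at 164 ± 26.9 and Pvalb at 67.4 ± 8.47. Gad2 at 35.5 ± 2.22, Vip at 29.2 ± 1.58, Slc32a1 at 26.5 ± 0.564 and Reln at 18.9 ± 3.72 TPM formed the low end. Between neighbours in this order the control mice overlapped for 1 pair, Gad1 and Npy, and even there Gad1 was above Npy in 12 of 12 libraries. The order was less fixed at the low end, where Gad2 exceeded Vip in 9 of 12 libraries, Vip exceeded Slc32a1 in 11 and Slc32a1 exceeded Reln in 11.

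The members also differed in how much they varied between mice. The coefficient of variation over the 12 mice was lowest for Cck (7.32%) and Sst (7.38%), between 10.5% and 17.7% for Vip, Gad2, Npy, Gad1, Slc32a1 and Pvalb, and highest for Reln (33.5%). The highest library stood 1.27 times above the lowest for Cck and 3.18 times for Reln.

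**Figure D1:**
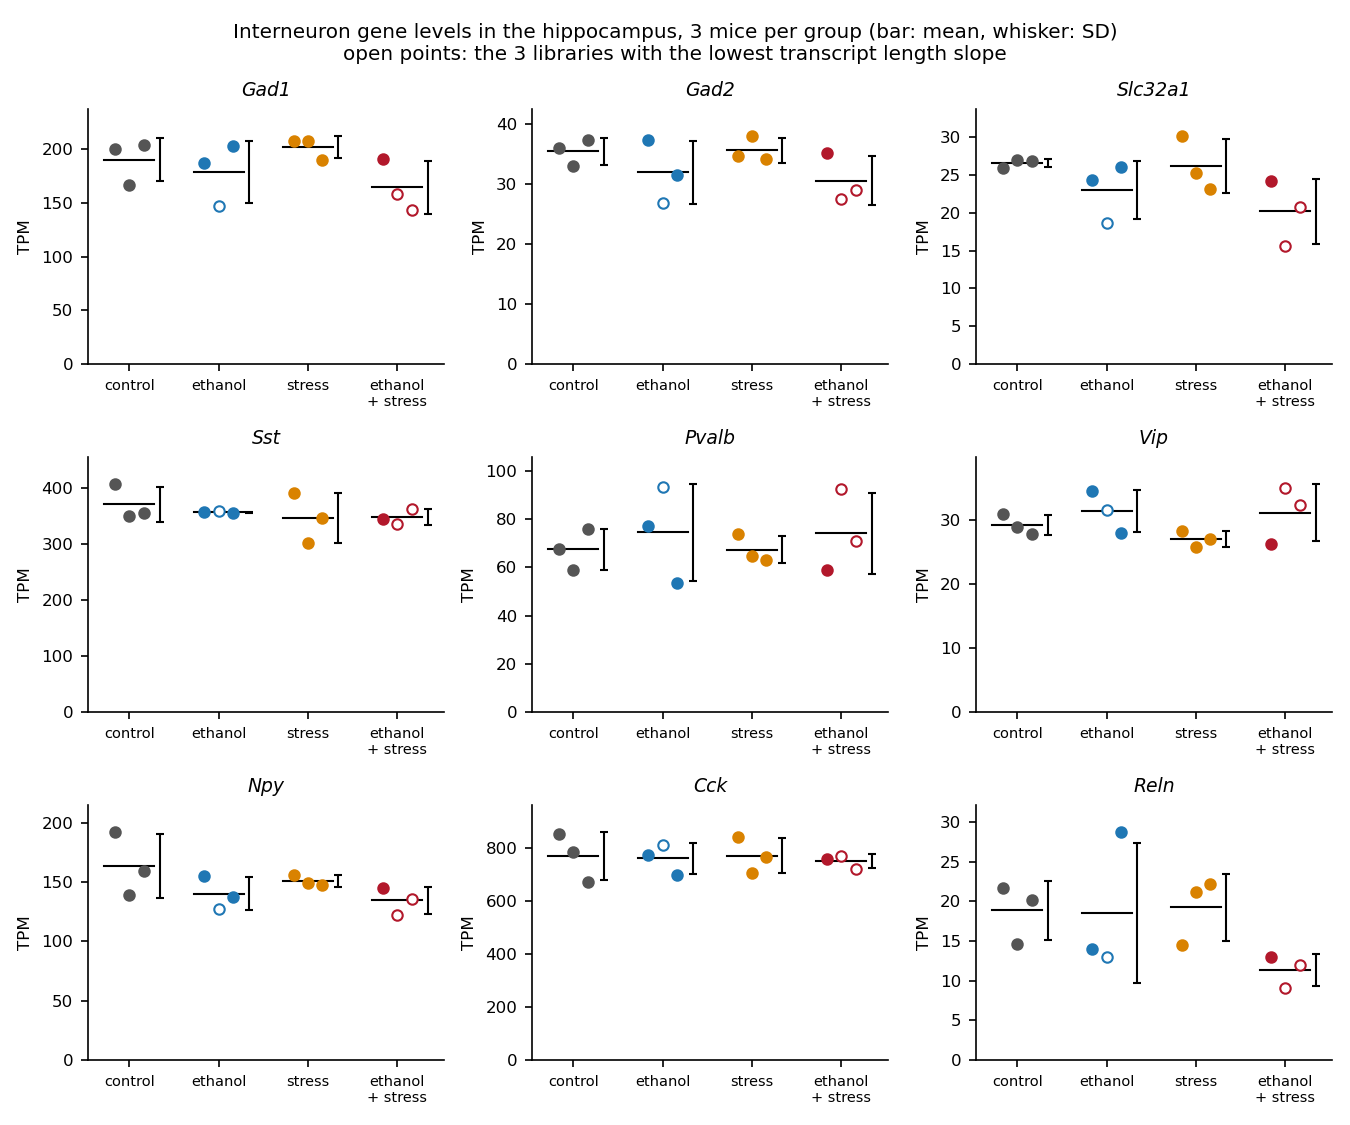
Summed TPM of each of the 9 genes (vertical axis, from 0) in the 12 mice, with a bar at the mean of each group of 3, a whisker of 1 SD and open points for the 3 libraries of lowest length slope. Sst and Cck are level across the groups, the open points are the lowest values of Gad1, Gad2, Slc32a1, Npy and Reln, and Reln spreads most, from 9.03 to 28.7 TPM.

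No member passed the threshold of an unadjusted p under 0.01 in any comparison of summed TPM. Ethanol called 0 of 9 members beside 0.679% of 18419 genes tested, stress 0 beside 0.51%, ethanol + stress 0 beside 0.972%, and the interaction of ethanol and stress 0 beside 0.461% (limma on log2(TPM + 0.5), two-sided). At an unadjusted p under 0.05 the counts were 0 beside 3.64% for ethanol, 0 beside 2.4% for stress, 0 beside 2.69% for the interaction and 3 for ethanol + stress, all 3 with lower values, beside 2.13% of genes with lower values. The lowest Benjamini-Hochberg adjusted p of a member was 0.996 for ethanol, 0.9998 for stress, 0.791 for ethanol + stress and 0.99997 for the interaction. In bulk tissue fewer cells of a type and less RNA per cell cannot be told apart, which holds for every level given here.

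The interaction, the effect of both exposures beyond the sum of each alone, had a 95% interval that spans 0 for all 9 members. On the log2 scale it was -0.21 for Gad1, -0.07 for Gad2, -0.16 for Slc32a1, 0.07 for Sst, 0.05 for Npy, 0.10 for Vip, -0.02 for Cck, 0.00 for Pvalb and -0.64 for Reln. It turned sign without the 3 libraries for Gad2 (0.03), Cck (0.04), Pvalb (-0.12) and Vip (-0.13), and for Gad1, Slc32a1 and Reln it was -0.12, -0.03 and -0.63.

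More members lay below 0 than above it in both groups exposed to ethanol. Of the 9 members 7 had a log2 fold change below 0 in ethanol and 7 in ethanol + stress, against 4 in stress. The median over the members was -0.10, -0.21 and 0.00 in that order, beside medians of 0.02, 0.02 and 0.00 over all genes. The 3 comparisons share their control mice, so these counts are not separate observations. Other marker lists had medians below 0 as well: CA pyramidal cell markers had -0.18 in ethanol + stress, and oligodendrocyte and choroid plexus markers had -0.23 and -0.98 in ethanol. Others lay above 0: in ethanol Cajal-Retzius markers (0.15, 2 of 7 below 0) and neocortex markers (0.08, 1 of 8), and choroid plexus markers in stress (0.96, 0 of 8) and in ethanol + stress (0.35, 0 of 8). Rescaling every library to the same total moved the median of all genes in ethanol + stress by -0.12 and that of the members to -0.35, and it put Pvalb and Vip at -0.02 and -0.05, below 0 as well. In stress the same rescaling turned Pvalb, Gad2 and Cck below 0, with a member median of -0.02, so the contrast with stress depended on scaling. Without the 3 libraries of lowest length slope, 6 members lay below 0 with ethanol (median -0.06), 4 with stress (0.00) and 8 with both (-0.13). With the length trend removed, 6 lay below 0 with ethanol (-0.11), 6 with stress (-0.03) and 8 with both (-0.23), so stress then had as many as ethanol.

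**Figure D2:**
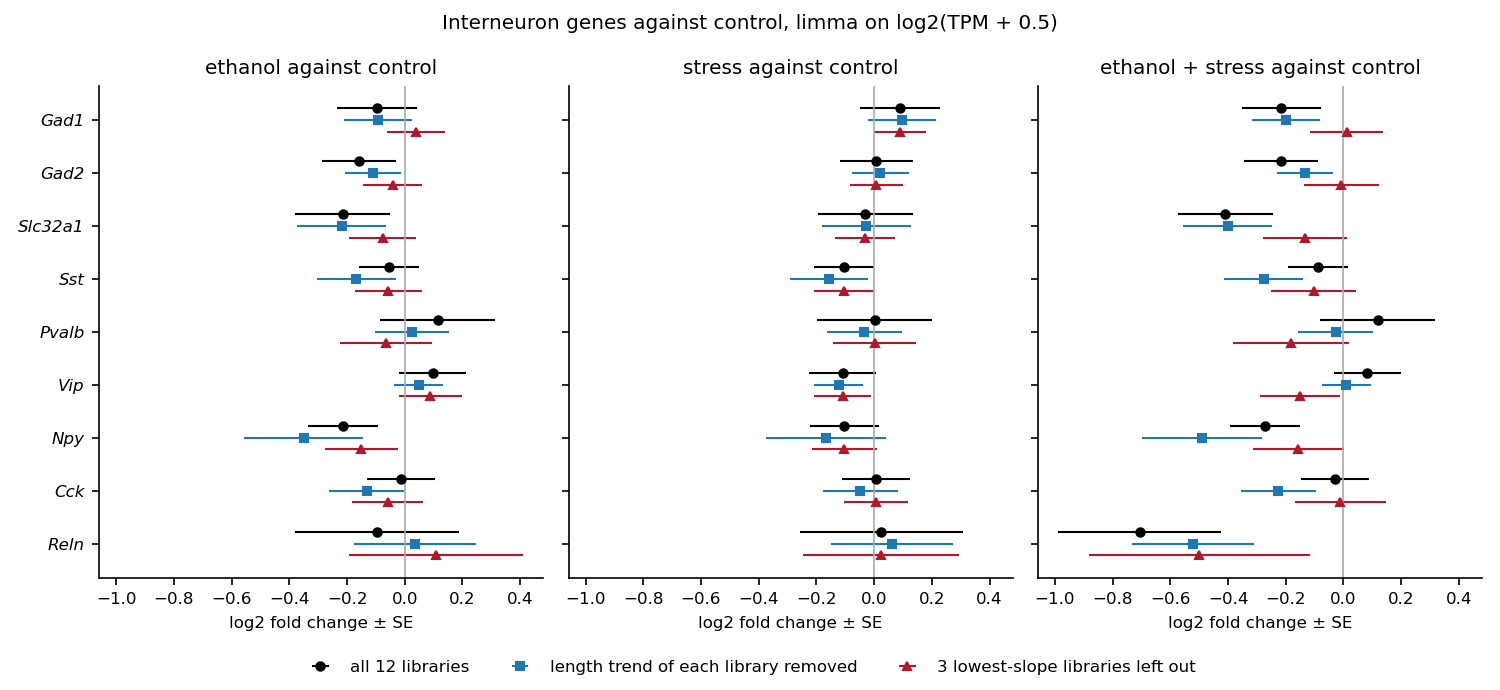
Log2 fold change against control (horizontal axis, with whiskers of 1 SE) of each member in the ethanol, stress and ethanol + stress mice, from all 12 libraries (black), after removal of the length trend of each library (blue) and without the 3 libraries of lowest length slope (red). In ethanol + stress the black values of Slc32a1 (-0.41) and Reln (-0.71) lie farthest below 0, and without the 3 libraries they become -0.13 and -0.50.

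The enzymes and the transporter of GABA come first. Gad1 (chr2:70553072-70602014, plus strand) encodes GAD67, the enzyme behind most GABA of the cell body. Control mice held 199.7, 166.8 and 203.7 TPM of it, with 186.7, 146.9 and 202.9 in ethanol, 207.8, 207.4 and 190.0 in stress and 190.7, 158.5 and 143.4 in ethanol + stress mice. The groups overlapped in every comparison, with the lowest values in ethanol + stress 3 and ethanol 2. The log2 difference from control was -0.10 (SE 0.14) for ethanol, 0.09 for stress and -0.21 for ethanol + stress (SE 0.14, 95% interval -0.52 to 0.09). Both turned sign without the 3 libraries of lowest slope, to 0.040 (SE 0.10) and 0.011 (SE 0.13).

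Gad2 (chr2:22622205-22693874, plus strand) encodes GAD65, the form bound to synaptic vesicles. Its values were 35.96, 33.03 and 37.4 TPM in control, 37.4, 26.9 and 31.6 in ethanol, 34.7, 38.01 and 34.2 in stress and 35.2, 27.6 and 29.0 in ethanol + stress mice. Here too ethanol 2 and ethanol + stress 2 and 3 were the 3 lowest of the 12 libraries. On the log2 scale Gad2 differed from control by -0.16 (SE 0.13) for ethanol, 0.01 for stress and -0.22 for ethanol + stress (SE 0.13, 95% interval -0.49 to 0.06). Leaving out these 3 libraries brought the ethanol value to -0.04 (SE 0.10) and the ethanol + stress value to -0.0072 (SE 0.13).

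Slc32a1 (chr2:158610767-158615748, plus strand) encodes VGAT, without which no GABA enters a vesicle. It was the only one of these 3 genes whose ethanol + stress mice all lay below the control mice. The control mice had 25.9, 26.9 and 26.8 TPM and the ethanol + stress mice 24.1, 15.6 and 20.7, while ethanol mice had 24.3, 18.7 and 25.97 and stress mice 30.1, 25.2 and 23.1. The log2 difference of ethanol + stress was -0.41 (SE 0.16, 95% interval -0.77 to -0.05), a ratio of 0.753, with an adjusted p = 0.791. Slc32a1 and Reln were the 2 members with no overlap between control and ethanol + stress, beside 4.62% of all genes that lay wholly lower. No member was free of overlap in ethanol, beside 8.26% of genes, or in stress, beside 7.2%.

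The value for Slc32a1 rested in part on single mice. Without ethanol + stress 1 it became -0.55 (SE 0.16), past the threshold of an unadjusted p under 0.01, and without ethanol + stress 2 it became -0.24 (SE 0.15). Removal of the length trend left it at -0.40 (SE 0.15, adjusted p = 0.767), and leaving out the 3 libraries of lowest slope gave -0.13 (SE 0.15, adjusted p = 0.978) with 1 ethanol + stress mouse remaining. In ethanol mice the difference was -0.22 (SE 0.16, 95% interval -0.58 to 0.14), or -0.08 without the 3 libraries, and in stress mice it was -0.03.

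At the level of transcripts, Gad1 held the clearest order of mice. Gad1-201 (chr2:70562042-70602014, 3355 bases in 17 exons), which encodes full-length GAD67, made up 71.7% of Gad1. It was 143, 153 and 156 TPM in control, 134, 88.9 and 132 in ethanol, 139.7, 140.5 and 139 in stress and 139, 96.5 and 118 in ethanol + stress mice. All 9 exposed mice lay below all 3 control mice, an order that 159 of 59852 transcripts tested had (0.266%) and 247 had reversed (0.413%). It was noticed after the values were seen.

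No comparison of Gad1-201 passed the threshold. Its log2 difference was -0.37 (SE 0.16, 95% interval -0.73 to -0.02, adjusted p = 0.903) for ethanol, -0.11 (95% interval -0.47 to 0.25) for stress and -0.37 (95% interval -0.73 to -0.01, adjusted p = 0.888) for ethanol + stress. Without the 3 libraries of lowest slope these values were -0.18 (SE 0.07, adjusted p = 0.978), -0.11 (SE 0.06) and -0.11 (SE 0.08). The stress mice lay closest together, at 139.7 ± 0.778 TPM (SD, n = 3), under control mice at 151 ± 6.69.

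The remainder of Gad1 moved between its other transcripts in a way that differed from mouse to mouse. Gad1-206, a processed transcript of 2996 bases that holds 16.2% of the gene, was between 19.1 and 37.2 TPM in 11 libraries and 8.52 in control 2. Gad1-204, a transcript of 398 bases of which 346 are shared with Gad1-201, was between 10.5 and 33.5 TPM in 10 libraries and close to or at 0 in control 2 and ethanol + stress 3. It is named for this after its values were seen. In these 2 libraries Gad1-201 held 91.7% and 82.5% of the gene, against 60.5% to 76.7% in the other 10, so the sum per gene and the level of Gad1-201 ranked the control mice differently. Reads that fit several transcripts were divided by an estimate, and Gad1os lies antisense to Gad1 over 10286 bases of their gene spans. Whether reads of the pair were kept apart by strand is not given in the sources used here, so the values of Gad1 are uncertain in that respect.

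Gad2-201 held 86.4% of Gad2 and Gad2-202 held 13.6%. Gad2-202 was 1.10 TPM in ethanol 3 and 2.69 to 6.66 in the other libraries. The log2 difference of Gad2-201 was -0.14 for ethanol, 0.00 for stress and -0.22 for ethanol + stress (SE 0.15). The first and the last turned sign without the 3 libraries of lowest slope, to 0.0081 (SE 0.09) and 0.09 (SE 0.11). Slc32a1 has a single transcript, and its gene span is overlapped over 911 bases by the antisense gene Gm14205, with the same uncertainty.

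**Figure D3:**
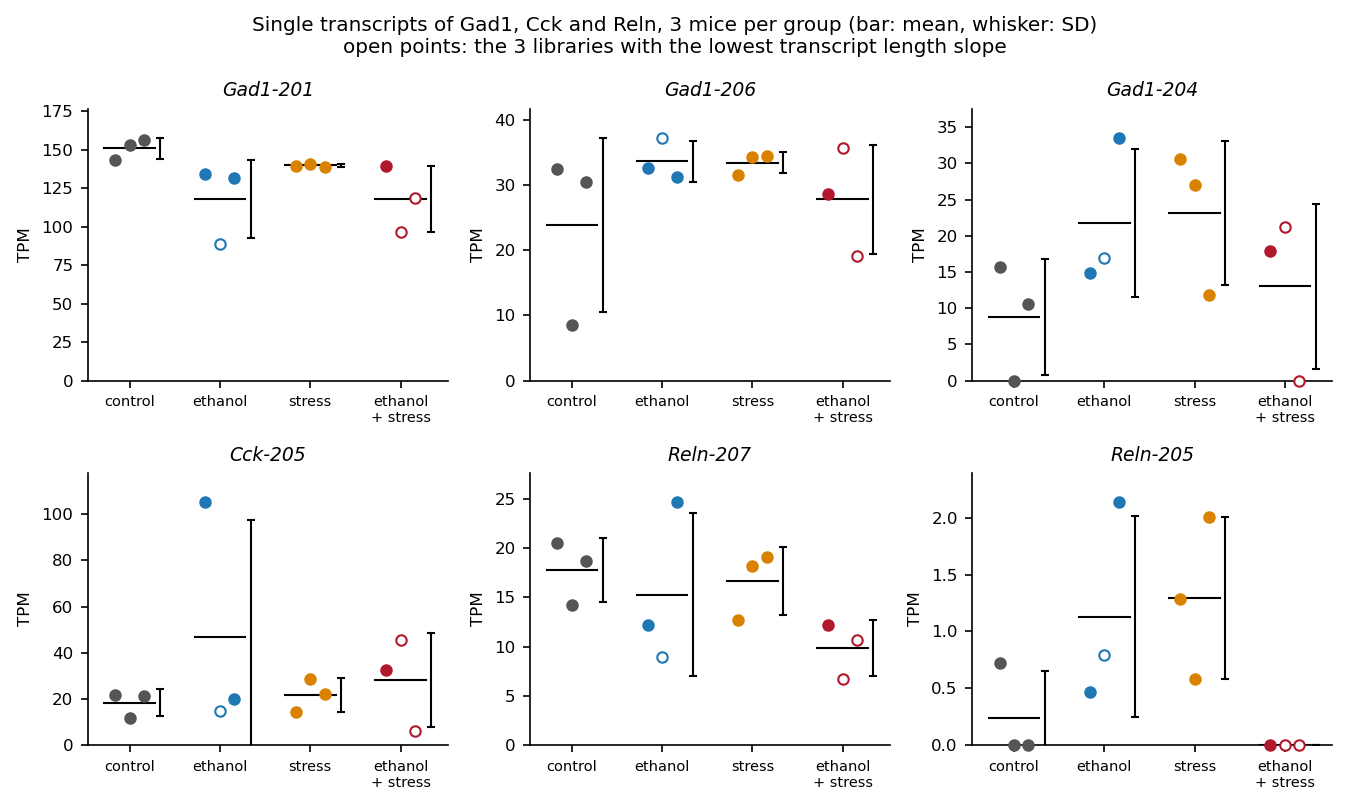
TPM per mouse (vertical axis, from 0) of 6 transcripts of Gad1, Cck and Reln, with a bar at the group mean and a whisker of 1 SD that ends at the axis where it would pass below 0. Gad1-201 is highest in the 3 control mice, Cck-205 stands out in 1 ethanol mouse at 105 TPM, and Reln-205 is listed at 0 in all 3 ethanol + stress mice.

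Among the peptides, Sst (chr16:23889573-23890958, minus strand) varied little across the groups. Somatostatin is made by the interneurons that contact the distal dendrites of pyramidal cells. Control mice had 406, 349 and 355 TPM, ethanol mice 356, 357 and 354, stress mice 390.4, 300.5 and 345, and ethanol + stress mice 344, 336 and 362. Group means ran from 345 to 370.1 TPM and all groups overlapped. Its log2 difference was -0.05, -0.10 and -0.09 (SE 0.10 each) for ethanol, stress and ethanol + stress. The 95% interval of the last, -0.32 to 0.14, leaves out a change by 1 on the log2 scale in either direction. Sst differed without the 3 libraries by -0.06 in ethanol and by -0.10 (SE 0.15) in ethanol + stress.

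Npy (chr6:49822710-49829507, plus strand) encodes a peptide that dampens glutamate release and is found in part of the somatostatin cells and in neurogliaform cells. Its levels were 192, 139 and 159.6 TPM in control, 155, 128 and 137 in ethanol, 156, 149 and 147 in stress and 145, 122 and 136 in ethanol + stress mice. The 3 lowest values came from ethanol 2, ethanol + stress 2 and ethanol + stress 3, and the highest from control 1. Npy differed from control on the log2 scale by -0.21 (SE 0.12, 95% interval -0.48 to 0.05) for ethanol, -0.10 (SE 0.12) for stress and -0.27 (SE 0.12, 95% interval -0.53 to -0.01, adjusted p = 0.791) for ethanol + stress.

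The size of the Npy value depended on single control mice and on the 3 libraries of lowest slope. Without control 1 the ethanol + stress difference was -0.15 (SE 0.11), and without control 2 it was -0.38 (SE 0.12), past the threshold. At 566 bases Npy is the shortest of the members, and genes under 1000 bases were raised in the 3 libraries of lowest slope, whereas Npy was low there. Removal of the length trend made the difference larger, at -0.49 (SE 0.21, adjusted p = 0.767), and leaving out the 3 libraries made it smaller, at -0.16 (SE 0.16, adjusted p = 0.978), and put ethanol at -0.15 (SE 0.13).

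Vip (chr10:5639218-5647617, plus strand) marks interneurons that chiefly inhibit other interneurons. It was 30.9, 28.9 and 27.8 TPM in control, 34.5, 31.6 and 27.97 in ethanol, 28.4, 25.7 and 27.0 in stress and 26.2, 34.9 and 32.3 in ethanol + stress mice. Values in the ethanol + stress mice spanned those of the control mice, 1 below and 2 above. Vip differed by 0.10 (SE 0.12) on the log2 scale for ethanol, -0.11 for stress and 0.08 for ethanol + stress. The ethanol value was 0.09 without the 3 libraries, and that of ethanol + stress became -0.15 without them and -0.05 after rescaling to the same total. Vip-201, whose coding part holds the peptide printed above, made up 98.9% of the gene.

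Cck (chr9:121489824-121495694, minus strand) encodes the precursor of cholecystokinin, a mark of basket cells that carry cannabinoid receptors. Control mice had 851, 783 and 671 TPM, ethanol mice 773, 809.6 and 697, stress mice 839, 706 and 765 and ethanol + stress mice 759, 768 and 721. The groups lay within each other and the control mice spanned the widest range. For Cck the log2 difference was -0.01, 0.01 and -0.03 (SE 0.12 each), with a 95% interval of -0.29 to 0.23 for ethanol + stress. They were -0.06, 0.01 and -0.01 without the 3 libraries. Cck-201 held 89.8% of the gene. Cck-205 reached 105 TPM, or 13.6% of the gene and 256 read pairs, in ethanol 1 and was between 6.04 and 45.7 in the other 11 libraries, a value singled out after it was seen.

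Promoters of Sst and Vip are printed because they hold the 2 motifs searched that are less frequent, each in 250 bases before the start as given by RefSeq for GRCm38.p6. Capitals mark TGACGTCA, the cAMP response element through which somatostatin transcription is classically controlled, in Sst and the TATA-like TATAAA in Vip.
Sst promoter, chr16:23890845-23891094, minus strand: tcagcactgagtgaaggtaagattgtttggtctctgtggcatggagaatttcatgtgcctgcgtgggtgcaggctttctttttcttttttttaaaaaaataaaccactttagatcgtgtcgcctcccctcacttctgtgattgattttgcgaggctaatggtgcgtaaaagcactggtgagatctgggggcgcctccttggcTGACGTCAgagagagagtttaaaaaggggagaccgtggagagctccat
Vip promoter, chr10:5638968-5639217, plus strand: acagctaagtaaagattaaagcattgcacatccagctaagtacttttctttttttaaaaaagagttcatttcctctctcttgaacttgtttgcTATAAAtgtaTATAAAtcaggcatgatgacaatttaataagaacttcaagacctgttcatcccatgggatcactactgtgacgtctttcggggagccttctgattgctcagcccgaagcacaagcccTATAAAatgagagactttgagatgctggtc
On both strands of 32851 promoters of 300 bases, TGACGTCA was present in 1.79%, TATAAA in 13.6% and CCAAT in 37.4%. TGACGTCA was found for Sst alone among the members, with its first base at -48, and TATAAA for Vip (-157, -147 and -30) and for Gad1 on the opposite strand (-141). CCAAT was found for Gad2 (-226 and 33) on the strand of the gene and for Npy on the opposite strand (-166). The members range from 41.7% GC with 4 CG pairs for Vip to 80.7% GC with 47 CG pairs for Reln, against medians of 52.7% and 7 over all promoters. A motif match describes these letters and no binding was measured.

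Pvalb (chr15:78191114-78206400, minus strand) encodes the calcium buffer of fast-spiking basket cells. It was 67.4, 58.9 and 75.8 TPM in control, 76.9, 93.1 and 53.3 in ethanol, 73.6, 64.9 and 63.2 in stress and 59.0, 92.3 and 70.9 in ethanol + stress mice. The 2 highest values, ethanol 2 and ethanol + stress 2, came from libraries in which short genes were raised, and Pvalb transcripts have a mean length of 977 bases. For Pvalb the log2 difference was 0.11 (SE 0.20) for ethanol, 0.00 for stress and 0.12 (SE 0.20, 95% interval -0.32 to 0.55) for ethanol + stress, and removal of the length trend gave 0.02, -0.03 and -0.03. Without the 3 libraries the ethanol and ethanol + stress differences turned to -0.07 (SE 0.16) and -0.18 (SE 0.20). Pvalb-202, with the same coding part as Pvalb-201 and 889 bases in common with it, was listed at 6.09 TPM (10.3% of the gene) in ethanol + stress 1 and at 3.56 in ethanol + stress 2. It was at or near 0 in the other 10 libraries, did not pass the filter and is named after its values were seen.

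Reln (chr5:21884454-22344702, minus strand) had the largest difference of any member. Control mice had 21.7, 14.7 and 20.2 TPM, ethanol mice 14.0, 13.0 and 28.7, stress mice 14.4, 21.1 and 22.2 and ethanol + stress mice 13.0, 9.03 and 11.96. All 3 ethanol + stress mice lay below every control mouse, and ethanol 3 lay above every other mouse. The log2 difference of ethanol + stress was -0.71 (SE 0.28, 95% interval -1.32 to -0.09), a ratio of 0.613, with an adjusted p = 0.791. It was -0.10 (SE 0.28) for ethanol, or 0.11 (SE 0.30) without the 3 libraries, and 0.03 (SE 0.28) for stress, and the interaction of -0.64 (SE 0.40, 95% interval -1.51 to 0.24) did not pass the threshold.

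The spread of Reln, widest in ethanol mice, bears on its test. With a model of control and ethanol + stress mice alone the same difference had an SE of 0.19 and passed the threshold. Without ethanol + stress 2 it was -0.56 (SE 0.31), with the length trend removed -0.52 (SE 0.21, adjusted p = 0.767) and without the 3 libraries of lowest slope -0.50 (SE 0.38, adjusted p = 0.978). Reln transcripts have a mean length of 10595 bases, the longest of the members, and genes over 4000 bases were lower in those 3 libraries. Among annotated genes that overlap Reln, the longest overlap is that of the antisense gene Gm10475 over 43084 bases of their spans. Whether reads of the pair were kept apart by strand is not given in the sources used here, and the values of Reln are uncertain in that respect.

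Most of Reln was Reln-207 (11699 bases in 65 exons), with 87.6% of the summed TPM. It was 20.5, 14.2 and 18.7 TPM in control, 12.2, 8.95 and 24.7 in ethanol, 12.7, 18.1 and 19.1 in stress and 12.2, 6.73 and 10.7 in ethanol + stress mice. As for the gene, the ethanol + stress mice lay below the control mice, with a log2 difference of -0.84 (SE 0.34, 95% interval -1.59 to -0.10, adjusted p = 0.888). Without the 3 libraries it was -0.51 (SE 0.39). Reln-207 made up 69.0% of the gene in ethanol 2 and 74.6% in ethanol + stress 2 against 85.8% to 97.0% in the other 10, so these 2 libraries were lower still in the full-length form than in the sum.

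Across the transcripts of the members, 1 call at p under 0.01 was made, in the interaction. The count was 0 of 22 beside 1.26% of 59852 transcripts for ethanol, 0 beside 0.914% for stress, 0 beside 1.21% for ethanol + stress and 1 beside 0.854% for the interaction. At p under 0.05 it was 2, 1, 4 and 1 transcripts beside 5.43%, 3.88%, 5.57% and 4.06%. Groups did not overlap for 1 transcript with ethanol (10.2% of all), 3 with stress (8.22%) and 5 with ethanol + stress (10.2%), the 5 being lower in ethanol + stress beside 4.23% of all that were.

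The call was Reln-205, a processed transcript of 891 bases at the 3′ end of Reln (chr5:21884895-21896068). Its listed TPM were 0.719, 0 and 0 in control, 0.464, 0.789 and 2.14 in ethanol, 1.28, 0.581 and 2.01 in stress and 0, 0 and 0 in ethanol + stress mice. It was thus above 0 in all 6 mice with a single exposure, in 1 of 3 control mice and in no mouse with both. The values above 0 correspond to 2.84 to 13.7 read pairs, and a count of 0 allows up to 3 read pairs, worth 0.489 to 0.583 TPM in the 5 libraries at 0. The interaction was -2.90 on the log2(TPM + 0.5) scale (SE 0.66, 95% interval -4.35 to -1.45, adjusted p = 0.854). Its size depended on the pseudocount, with -6.02 at 0.1 and -1.90 at 1, and no fold is given for so few reads. It was no longer called with a filter of 1 TPM or without the 3 libraries of lowest slope (-3.00, SE 0.99). Reln-205 met the filter of 0.1 TPM in 6 libraries through the 6 mice with a single exposure and control 1, so a transcript listed at 0 in ethanol + stress could be tested only because it was present in the others.

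The low values of several members fell in the same 3 libraries. Ethanol 2, ethanol + stress 2 and ethanol + stress 3 were the 3 lowest of 12 for Gad1, Gad2, Slc32a1, Npy and Reln. For Pvalb and Vip 2 of the 3 were among the 3 highest instead, and for Sst and Cck they were spread through the order. In these 3 libraries Slc32a1 deviated from its 12-mouse mean by -0.33, -0.58 and -0.19, Reln by -0.31, -0.81 and -0.42 and Gad1 by -0.31, -0.20 and -0.34 on the log2 scale. The mean standardised level of Gad1, Gad2 and Slc32a1 was -1.61, -1.69 and -1.27 SD in them and 0.01 to 0.93 SD in the other 9 libraries.

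Length was not the only property in which the 3 libraries differed. The summed level of 8 microglia markers was 545, 572 and 612 TPM in them and 372 to 484 in the other 9 mice, and that of 8 astrocyte markers was 2259, 2328 and 2572 against 1597 to 2121. Oligodendrocyte markers summed to 5523, 6355 and 6325 TPM against 2943 to 5923. CA pyramidal cell markers went the other way, with 852, 820 and 803 TPM against 859 to 996. Of the Cajal-Retzius markers, whose summed level was 12.4 to 19.5 TPM, Lhx1 was listed at 0 in 3 libraries. The part of length and of these cell types in the levels of the members was not tested.

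**Figure D4:**
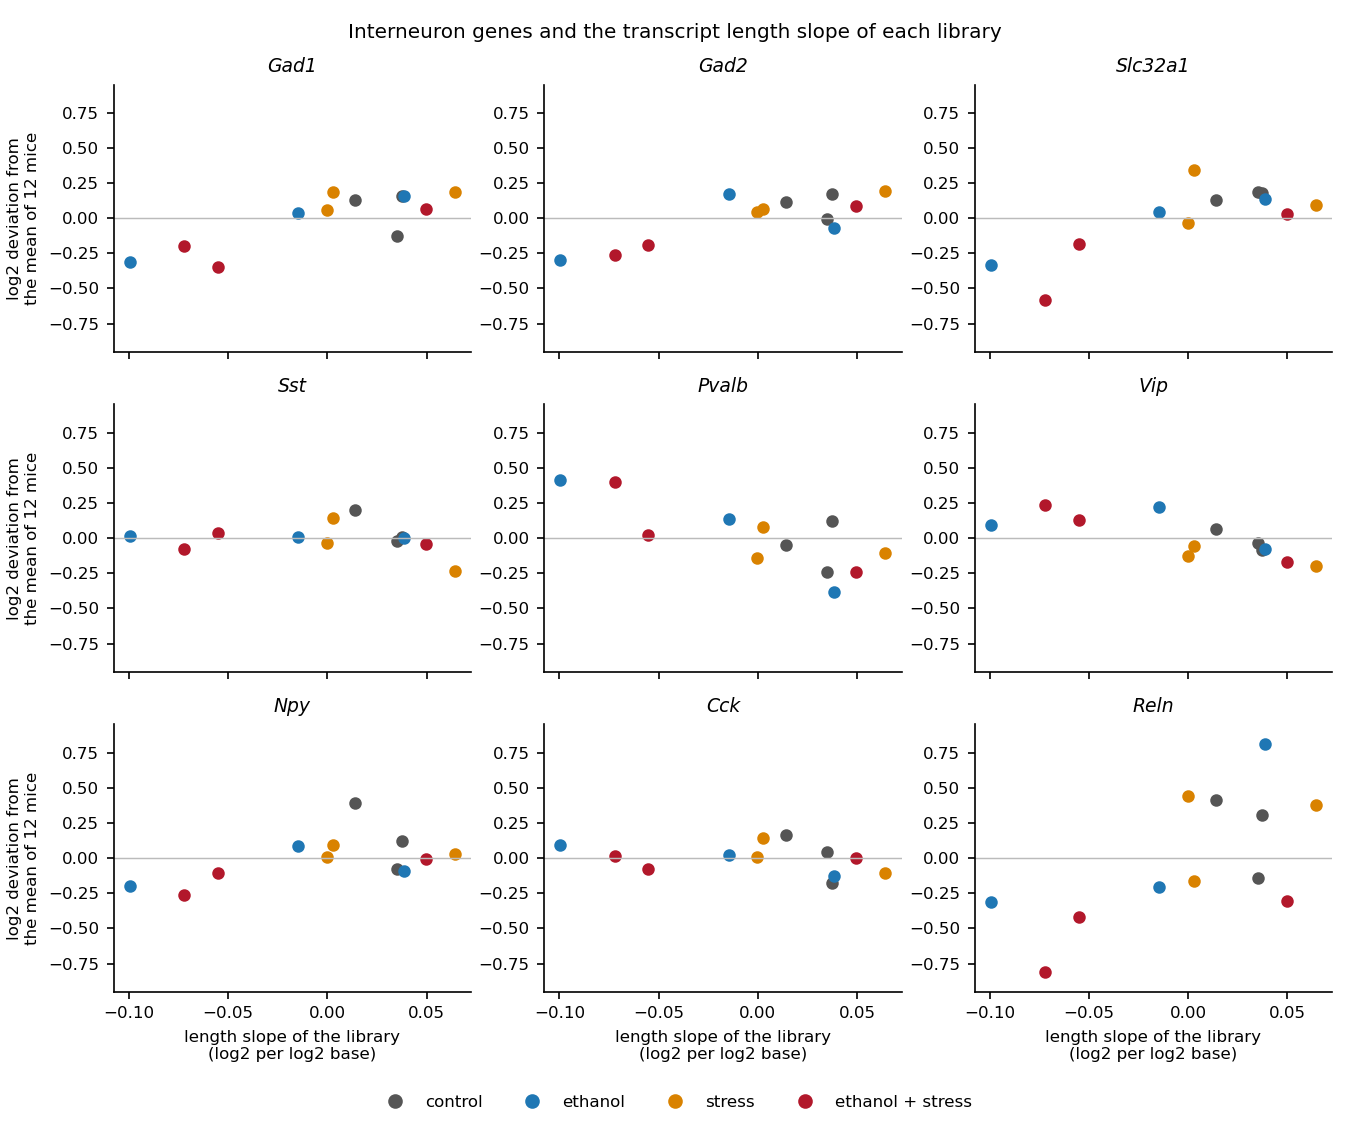
Deviation of each member from its mean over the 12 mice (vertical axis, log2) against the length slope of the library (horizontal axis, log2 per doubling of transcript length), coloured by group. The 3 libraries left of the gap, 1 ethanol and 2 ethanol + stress, lie below 0 for Gad1, Gad2, Slc32a1, Npy and Reln and above 0 for Pvalb and Vip.

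Within the other 9 mice, which span all groups, no relation between members held after adjustment. Of 36 pairs 2 had an unadjusted p under 0.05 by Pearson's r. Gad2 and Pvalb had r = 0.75 and rho = 0.73 (exact permutation p = 0.0214 and 0.0311, adjusted 0.735 and 0.373), with r = 0.76 after the 2 farthest mice were left out. Sst and Cck had r = 0.66 and rho = 0.53 (exact permutation p = 0.0449 and 0.148, adjusted 0.735 and 0.664), and r dropped to 0.46 without the 2 farthest mice. By rank the lowest p values were those of Pvalb and Npy (rho = 0.85, exact permutation p = 0.00607, adjusted 0.194) and of Sst and Vip (rho = 0.82, exact permutation p = 0.0108, adjusted 0.194). Their r was 0.56 and 0.52, or 0.51 and 0.16 without the 2 farthest mice. Gad1 and Gad2, the paired GABA enzymes, had r = 0.31 (exact permutation p = 0.424, adjusted 0.810) and rho = 0.25. No r between members over 12 mice is given because the 3 libraries stand apart.

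The length slope itself was related to no member within those 9 mice after adjustment over the 9 genes. The strongest value was that of Vip, with r = -0.72 and rho = -0.68 (exact permutation p = 0.0219 and 0.0503, adjusted 0.197 and 0.324) and r = -0.78 without the 2 farthest mice. For Sst r was -0.60 (exact permutation p = 0.0850, adjusted 0.329), or -0.93 without the 2 farthest mice, and for Slc32a1 it went from 0.0034 to -0.76. Over all 12 mice 6 members (Gad1, Gad2, Slc32a1, Pvalb, Vip and Reln) were related to the slope at an adjusted permutation p under 0.05 by Pearson's r and 3 (Gad1, Pvalb and Vip) by Spearman's rho, with Pvalb and Vip falling as the slope rose and the other 4 rising. As the 3 libraries form a separate cluster on the slope no pooled r is given.

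The genes whose pattern over the 12 mice was most like the mean of Gad1, Gad2 and Slc32a1 were not interneuron markers. Of 11228 other genes at a mean of 5 TPM or more, Mcoln1, a lysosomal ion channel, had the highest likeness (r = 0.97, with 25.7 to 37.0 TPM). Copb2, a subunit of the COPI vesicle coat, and Psap, the precursor of the saposins, followed with r = 0.96 each, Cdipt, which makes phosphatidylinositol, with 0.96 and Unc5b, a netrin receptor, with 0.95. Over the 9 mice the same values were 0.85, 0.73, 0.43, 0.43 and 0.72. The first values include the 3 libraries that stand apart, in which Gad1, Gad2 and Slc32a1 were lowest, and all are descriptions over libraries that were near in depth but differed in length slope.

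Other genes of the interneuron system were read from fixed lists. Of 29 further interneuron markers and lineage factors tested, 0 were called in any comparison, and 21 lay below 0 after ethanol, 15 after stress and 20 after both, with medians of -0.07, 0.00 and -0.11. Synpr, a synaptic vesicle protein, had the highest mean at 173 TPM (136 to 225) and log2 differences of -0.01, -0.07 and 0.18. Cnr1, the cannabinoid receptor of the Cck basket cells, followed at 75.5 TPM (49.4 to 90.8) with -0.29, -0.03 and -0.35. At an unadjusted p under 0.05 in ethanol + stress were Nos1 (-0.41, SE 0.15), Htr3a (-0.29, SE 0.13), Kcnc2 (-0.52, SE 0.23) and Nxph1 (-0.31, SE 0.14), each with an adjusted p = 0.791 and all lower, beside the 2.13% of all genes that were lower at that threshold. The same threshold was met by Htr3a in ethanol (-0.34, SE 0.13) and by Pthlh, which was higher, in stress (0.44, SE 0.19), beside 3.64% and 2.4% of all genes in either direction. These 5 genes are named after their values were seen. Without the 3 libraries 16, 15 and 20 of the 29 lay below 0 with medians of -0.01, -0.0047 and -0.11, none of these calls at 0.05 held (Htr3a in ethanol was at -0.28, Pthlh in stress at 0.44 with an SE of 0.22), and Elfn1, a postsynaptic protein of somatostatin interneurons, was called in ethanol at 0.55 (SE 0.13) against 0.25 (SE 0.25) with all libraries.

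Genes of GABA transport and metabolism were called in 0 of 12 cases in each comparison. In ethanol 11 of the 12 lay below 0 with a median of -0.12, in stress 9 with -0.04 and in ethanol + stress 7 with -0.03. Glul, the glutamine synthetase of astrocytes, had the highest level at 1401 TPM (1164 to 1795) and log2 differences of -0.04, -0.09 and 0.26. Of the 12, 9, 9 and 6 lay below 0 without the 3 libraries, with medians of -0.02, -0.04 and 0.02, and Glul in ethanol + stress was at -0.0055.

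Receptors of the peptides and of reelin gave 0 calls of 14 in each comparison. Below 0 lay 9 after ethanol, 9 after stress and 11 after both, with medians of -0.08, -0.02 and -0.15. Dab1, the adaptor that relays the reelin signal, was at 48.5 TPM with differences of 0.16, 0.06 and 0.17, the last opposite in sign to that of Reln. Npy2r, a presynaptic neuropeptide Y receptor, was at 33.8 TPM with -0.20, -0.02 and -0.12. Sstr1, a somatostatin receptor, met an unadjusted p under 0.05 in ethanol + stress (-0.39, SE 0.16), beside 2.13% of all genes that were lower, and is named after its value was seen. It no longer met it without the 3 libraries (-0.26, SE 0.21), where Vipr2, a receptor of vasoactive intestinal peptide, met it with a higher value (0.97, SE 0.36). With the 3 libraries left out 13 were tested, of which 8, 9 and 6 lay below 0 with medians of -0.06, -0.02 and 0.01.

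Peptide processing genes gave 0 calls of 10, with 7, 8 and 6 below 0 and medians of -0.08, -0.04 and -0.15. Cpe, the carboxypeptidase that trims peptide precursors, had 2271 TPM and differences of 0.06, -0.02 and 0.10. Chgb, a granin of secretory granules, had 317 TPM and differences of -0.28, -0.04 and -0.49. Scg2, a further granin, met an unadjusted p under 0.05 in ethanol (-0.27, SE 0.11, and -0.21, SE 0.09, without the 3 libraries), beside 3.64% of all genes, and is named after its value was seen. Of the 10, 3, 8 and 5 lay below 0 without the 3 libraries, with medians of 0.02, -0.04 and -0.02, and Chgb in ethanol + stress turned to 0.31.

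**Figure D5:**
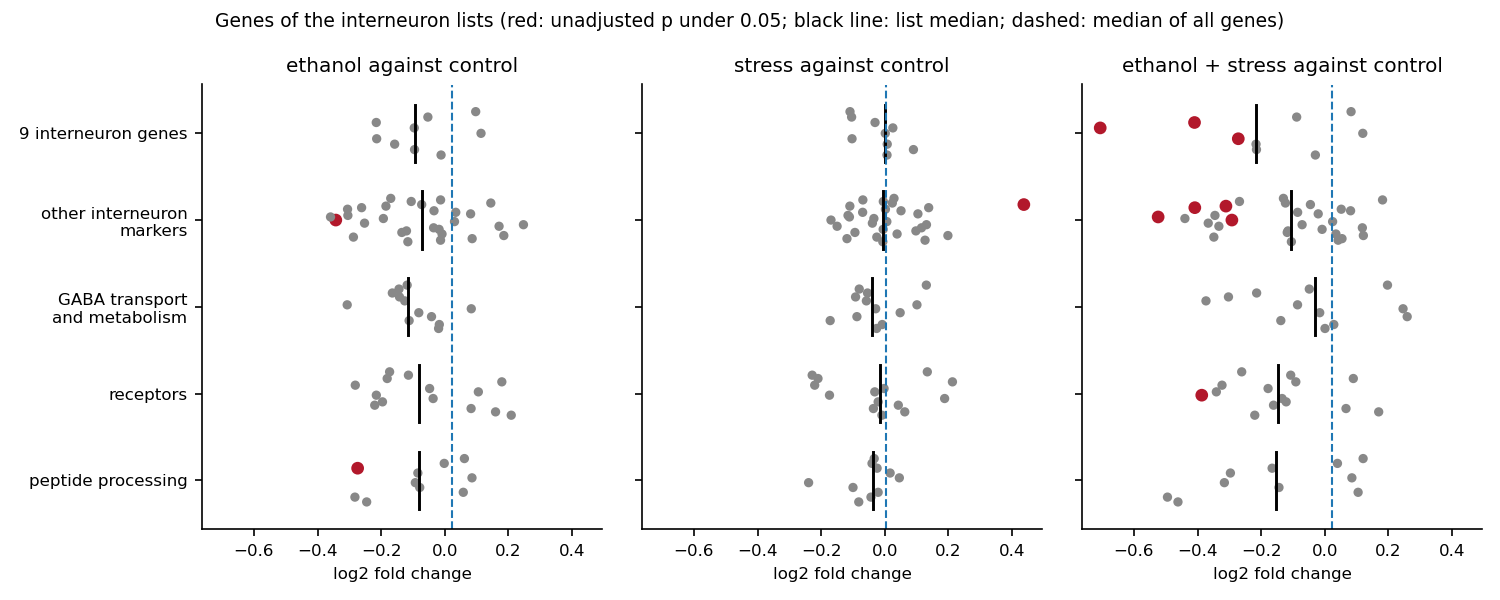
Log2 fold change against control (horizontal axis) of each gene of 5 lists (bands along the vertical axis) in the ethanol, stress and ethanol + stress mice, with red points for an unadjusted p under 0.05, a black line at the list median and a dashed line at the median of all genes. List medians run from -0.21 to 0.00, and apart from Reln and Kcnc2 in ethanol + stress all points lie within 0.5 of 0.

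Over all lists and comparisons, markers of other cells and regions gave 2 calls, beside 0.461% to 0.972% of all genes in each comparison. These were Glis3 of the granule cell list in ethanol + stress (0.52, SE 0.16, adjusted p = 0.791) and Tmem119 of microglia in the interaction (0.54, SE 0.16). Both were nearer to 0 without the 3 libraries, at 0.46 (SE 0.17) and 0.43 (SE 0.22), and neither was called. At an unadjusted p under 0.05 in ethanol + stress, 3 of 8 microglia markers were higher, beside 3.25% of all genes: C1qa (0.37, SE 0.17), C1qb (0.46, SE 0.16) and Tmem119 (0.30, SE 0.12), named after their values were seen. With the length trend removed C1qb was called (0.33, SE 0.08, adjusted p = 0.718) and the calls of Glis3 and Tmem119 were kept, and without the 3 libraries the 3 microglia values were 0.03, 0.14 and 0.18. An unadjusted p under 0.05 was also met in ethanol + stress by Lhx1 (0.56, SE 0.25) and Cux2 (-0.36, SE 0.16), beside 5.38% of all genes. It was met in ethanol by C1ql2 (-0.35, SE 0.13) and Mag (-0.32, SE 0.14), beside 3.64%, and in the interaction by Csf1r (0.29, SE 0.11), beside 2.69%. These genes are named after their values were seen, and Lhx1 is near the floor, with a mean of 0.163 TPM and 0 in 3 libraries. Each of the following lists has 8 genes. In ethanol + stress, where 54.1% of all genes lay above 0, 0 microglia markers lay below it (median 0.19), 2 with the length trend removed and 4 without the 3 libraries (median -0.02). Astrocyte markers had 1 below 0 (median 0.12), or 8 without the 3 libraries (-0.22), and oligodendrocyte markers 5 (-0.06), or 8 (-0.27). Of the CA pyramidal cell markers 6 lay below 0 with a median of -0.18, near that of the members, and 1 without the 3 libraries (0.12). In ethanol alone, where 55.6% of all genes lay above 0, 8 oligodendrocyte markers lay below it (-0.23, or 8 and -0.33 without the 3 libraries), 8 choroid plexus markers (-0.98, or 8 and -0.60), 6 pyramidal cell markers (-0.05, or 5 and -0.05), 5 microglia markers (-0.07, or 7 and -0.14) and 4 astrocyte markers (-0.02, or 8 and -0.09). Pyramidal cell markers summed to 803 to 996 TPM and granule cell markers to 122 to 184 across libraries, as fits the labelled tissue, and markers of striatum, thalamus and neocortex summed to 49.9 to 81.2, 94.2 to 113 and 100.4 to 122. Choroid plexus markers ranged from 41.2 to 7270 TPM between libraries, and their part in the levels of the members was not tested.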

How the data were processed

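RNA-Seq of hippocampus was used from 12 mice, 3 per group, grouped by their labels. Libraries were stranded total RNA after rRNA depletion. Paired reads were pseudo-aligned by the authors with kallisto to Ensembl transcripts of mouse, build mm10 (tools named in the submitters' processing notes are CASAVA, kallisto and sleuth, without versions) and deposited TPM per transcript scaled between libraries, a length-corrected signal that sums to 889222 to 1173650 per library. Whether strand was used in the assignment is not given in the sources used here. TPM are not read counts. The step of low values gave the depth, a fragment length of 200 to 208 bp and whole read pairs for 79.9% to 84.4% of low values (tolerance 0.1 read pairs), so reads were used for floors of 3 read pairs and not for tests. Floors cover counting error only.

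By transcript identifier 113492 of the 115270 found an entry in GENCODE vM21 (112353 in the same version), and those without one held 0.551% to 0.611% of the signal. Transcripts were summed per gene. Features reaching 0.1 TPM in 6 or more libraries were fitted as log2(TPM + 0.5) with limma 3.58.1 (lmFit, eBayes with trend; R 4.3.3), in 1 model of 4 groups without a replicate block. Calls are at an unadjusted p under 0.01, two-sided, with Benjamini-Hochberg adjustment over all features tested. With 3 mice per group and litters unknown, p values measure the spread between these mice. In simulated data of the same design (ethanol against control, 100 features per size), calls recovered 88% of genes given a log2 change of 1 and 97% given one of 2, and for transcripts 58% and 79%. Same-numbered mice of different groups rarely deviated together, which cannot show whether they shared a litter.

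The members and lists were chosen with earlier results of these data known. All 9 members are named in every comparison, with transcripts that hold at least 10% of their gene or are called. Of other lists, called genes are named and otherwise the 2 of highest mean TPM. 1 gene that this rule names is not reported here. Likeness is Pearson's r with the mean standardised log2 value of Gad1, Gad2 and Slc32a1, for which the 5 highest genes are given. Correlations within 9 mice were tested over all orders of the mice. Alternatives were the pseudocount, the filter, scaling by total or by median of ratios, the trend, the groups in the model, a replicate block, p under 0.05 and leaving out each mouse. After the data were seen, removal of the length trend (lowess) and leaving out the 3 libraries of lowest length slope were added. Peptide and promoter sequences came from GENCODE and RefSeq files of GRCm38. Python 3.11.15, numpy 2.4.6, pandas 2.3.3, scipy 1.17.1 and matplotlib 3.10.9 were used.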

Additional observations from a re-analysis of the deposited data

Results flagged for a closer look

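The response of Reln-205, the short processed transcript of Reln, to ethanol passed the unadjusted threshold of 0.01 for a difference between mice with and without stress, by the test of the interaction itself, -2.90 on the log2(TPM + 0.5) scale (limma, adjusted p = 0.854). It rests on values of at most 13.7 read pairs and was listed at 0 in all 3 ethanol + stress mice, and it passed the filter on low values through the 6 mice with a single exposure and 1 control mouse. The call was lost without the 3 libraries of lowest length slope (-3.00, SE 0.99) and with a filter of 1 TPM.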

How the results depend on the processing

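Groups of 3 mice and 22 tested transcripts limit these results, and with all 3 libraries of lowest slope left out the ethanol + stress group is 1 mouse, assumed to vary like the other groups. The cause of the shifts below was not tested.

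In ethanol, Pvalb became -0.065, Reln 0.11 and Gad1 0.040 without the 3 libraries, and Reln 0.037 with the length trend removed. In stress, rescaling to the same total gave Pvalb -0.016, Gad2 -0.0098 and Cck -0.011, and removal of the length trend gave Pvalb -0.034 and Cck -0.047. In ethanol + stress, Pvalb was -0.015 and Vip -0.051 after rescaling, Pvalb -0.028 with the length trend removed, and Pvalb -0.18, Vip -0.15 and Gad1 0.011 without the 3 libraries, where the interaction of Vip was -0.13. Members called rose to 1 (Reln) in ethanol + stress with only the groups compared and to 3 at p under 0.05. Transcripts called were 2, 1 and 4 at p under 0.05 in ethanol, stress and ethanol + stress, and the interaction call went to 0 with a filter of 1 TPM and without the 3 libraries (Reln-205, -3.00, SE 0.99). Pairs of members related at an adjusted p under 0.05 by Pearson's r went from 3 over 12 mice (Gad1 and Gad2, Gad2 and Slc32a1, Gad2 and Npy) to 0.

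Leaving out 1 mouse at a time gave, in ethanol, Sst -0.095 to 0.015, Pvalb -0.065 to 0.33, Cck -0.11 to 0.065, Reln -0.45 to 0.11, Gad1 -0.19 to 0.040 and Reln-205 0.73 to 1.57. In stress it gave Pvalb -0.091 to 0.090, Gad2 -0.042 to 0.046, Npy -0.21 to 0.020, Cck -0.087 to 0.084, Slc32a1 -0.14 to 0.052, Reln -0.14 to 0.21, Gad1 -0.0012 to 0.14, Reln-207 -0.25 to 0.079 and Reln-205 1.04 to 1.76. In ethanol + stress it gave Pvalb -0.050 to 0.27, Vip -0.0034 to 0.20, Cck -0.12 to 0.048, Npy -0.38 to -0.15 and Slc32a1 -0.55 to -0.24. Counts ran from 0 to 1 for members in ethanol + stress (1 without control 2, Npy, or ethanol + stress 1, Slc32a1) and for transcripts in ethanol (1 without control 1), stress (1 without control 1 or stress 2) and ethanol + stress (1 without ethanol + stress 1).

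Same-numbered mice of different groups deviated together at r over 0.1 in 1 of 18 pairs (-0.173 to 0.164). Between mice of different numbers r ran from -0.333 to 0.338. These values cannot show whether mice shared a litter. The replicate block left 0 members called in each comparison and 1 transcript in the interaction. Over all genes, ethanol + stress calls went from 179 to 118 after rescaling, and the share of calls that were higher from 71.5% to 45.8%, or 52.4% with the length trend removed. In ethanol that share went from 76% to 60% and 58.5%. In total 490 of 516 values under other settings and 275 of 312 with 1 mouse left out were classed as the same. For single differences, 403 and 221 of these, that means the same direction and side of the threshold. The remaining 87 and 54 are counts of calls, which have no direction. As 0 members and 1 transcript were called with the main settings, most values had no call to lose.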
